A study of Arabidopsis thaliana with 4 samples.

Results

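The regions described here are the KAN1-bound regions whose centre lies inside an annotated gene. Binding of KAN1 (KANADI1) was read by ChIP-Seq, the sequencing of DNA that is precipitated together with a protein, and a region counted as bound when its ratio was at least 3. The ratio is the mean number of reads of both KAN1-FLAG libraries divided by the summed reads of both negative libraries, and it is not corrected for library depth. On chromosomes 1 to 5, 491 bound regions name at least 1 gene at their centre in the deposited overlap field. They are 11.8% of the 4166 bound regions among 22103 called regions, and the other 3675 bound regions name no gene there, although 536 of them have their midpoint in a gene of the newer reference annotation. By the same threshold, 491 of 5763 called regions with their centre in a gene were bound (8.52%), beside 22.5% of the called regions that name no gene at their centre and 18.8% of all. Chosen by KAN1-FLAG replicate 2 alone the regions were 124 and by replicate 1 alone 967. These shares follow from the rule that chose the regions and are given as a description only.

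The KAN1-FLAG group has 2 libraries from 35S:FLAG-GR-KAN1 plants, precipitated with anti-FLAG beads. The negative group has 2 libraries, whose antibody field reads input, and the study's methods describe a single control library from untransformed Col-0 plants. All 4 libraries are labelled as ecotype Columbia-0, grown in liquid for 10 days and given dexamethasone (DEX) for 45 min. In the transgene, the 35S promoter drives a fusion of KAN1 with a FLAG epitope and the glucocorticoid receptor in most cells of the plant, so the place of binding within a leaf is not resolved. Whether the replicates are separate cultures is not stated in the labels. Negative replicate 2 had few reads, with none in 223 of the 491 regions.

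KAN1 is a GARP-family transcription factor, related in its DNA-binding domain to the MYB proteins, and acts mainly as a repressor. It is known for specifying the lower, abaxial side of leaves and for restricting the tissue where vascular and adaxial genes are active. A transcription factor can bind upstream of a gene, in its untranslated regions (UTRs) or in an intron, and an intron can carry regulatory sequence just as a promoter does.

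The motif VGAATAW was derived by the study from its own bound regions, so its presence here is no independent evidence of binding. The study gives the motif for only a part of those regions, from a motif-finding program. Its count is thus not comparable with the shares below. VGAATAW stands for 6 words of 7 bases, an A, C or G followed by GAATA and then A or T. These were searched on both strands, with overlapping words on opposite strands counted separately. The 12 sites below are shown because each is the site nearest to the midpoint of a region described later, and because together they cover 5′ UTRs, introns, coding sequence and 3′ UTRs. Each runs 5′ to 3′ on the strand of the gene, with the motif in capitals and 10 bases on each side, in the coordinates of the deposited build TAIR10, read from the RefSeq assembly TAIR10.1. Capitals that contain ATTC mark a word on the strand opposite to the gene.
AT5G21105 5′ UTR, chr5:7174274-7174300, plus strand: cgagaaaaaaAGAATAAattattcttt
AT1G01490 5′ UTR, chr1:182157-182183, minus strand: ttcttcttctTTATTCTcatttctctc
YAB2 5′ UTR, chr1:2675919-2675945, plus strand: tctttttattTTATTCTtccaaaatca
AP2 5′ UTR, chr4:17400654-17400680, plus strand: ggttagagagAGAATAAtattatttta
AT1G71710 intron, chr1:26980399-26980425, minus strand: ctctaatataAGAATATatgttggcaa
AT5G65380 intron, chr5:26124291-26124317, minus strand: tttgtgtgtgGGAATATttaggaaatt
GA2OX6 intron, chr1:488472-488498, plus strand: atttgacttgTTATTCCtcttcgtcat
LOG7 intron, chr5:1922636-1922662, minus strand: atgttacgtcGGAATAAtcacatggaa
LAX1 coding sequence, chr5:98677-98703, plus strand: attgcttcaaATATTCTatgggttaat
RGL1 coding sequence, chr1:24749846-24749872, plus strand: tcaatcgtgtGGAATAAaaataaataa
ICK1 3′ UTR, chr2:9976768-9976794, minus strand: atcttttagcATATTCTttagtacatt
AOC2 3′ UTR, chr3:9407963-9407989, plus strand: cgttggtacaCGAATATatgaaaagtc

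The gene-overlapping bound regions were modest in their ratios, and replicate 1 carried the higher one nearly throughout. Their reads ranged from 9 to 1149 in KAN1-FLAG replicate 1 (median 196) and from 3 to 602 in replicate 2 (median 94). The negative libraries had 2 to 104 reads in replicate 1 (median 37) and 0 to 6 in replicate 2 (median 1). The median ratio was 5.13 in replicate 1 and 2.48 in replicate 2, and 489 of the 491 regions had the higher ratio in replicate 1. Since both ratios share a denominator, this order is that of the reads in the KAN1-FLAG libraries. The mean ratio had a median of 3.76 and a maximum of 10.9. It was under 4 in 295 regions and at least 6 in 29, so most of the set lies close to the threshold. A ratio of at least 3 in both replicates was met by 124 of the 491 regions (25.3%), against 1505 of the other 3675 bound regions (41.0%). These counts use unscaled reads. With the KAN1-FLAG replicates scaled to equal totals, 385 of the called gene-overlapping regions reached 3 in both. In the other bound regions the median ratios were 5.52 and 2.76. No test was made between these sets, because the rule used the ratio and the regions share the same 4 libraries. The false discovery rate in the deposited table was at most 0.05 in all 491 regions for replicate 1 and in 126 for replicate 2. For replicate 2 it differs from the rates printed in the study. Those are far lower for regions of the genes IAA13 and PXY, deposited at 0.0203 and 0.436. The reason was not determined, so the count of 126 holds for the deposited values only.

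**Figure D1:**
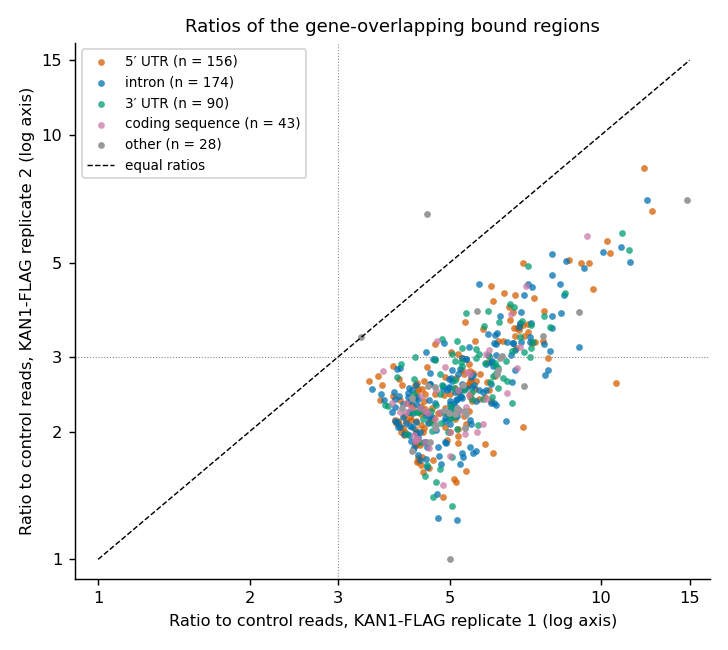
Ratio of KAN1-FLAG reads to the summed negative reads for each of the 491 gene-overlapping bound regions, in replicate 1 (x axis) and replicate 2 (y axis), both on log axes and coloured by the part of the reference gene at the midpoint. Dotted lines mark a ratio of 3 and the dashed line equal ratios: 489 regions lie below it, and 124 reach 3 in both replicates.

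The regions name 461 genes, of which 449 are in the reference annotation and 12 are not. By reference biotype 427 of them code for proteins, 8 are long non-coding RNAs, 7 other non-coding RNAs, 5 pseudogenes, 1 a transcribed pseudogene and 1 a miRNA gene. A single gene is named by 484 regions, 2 genes by 6 regions and 4 genes by 1 region. The regions were spread over all chromosomes, with 133, 82, 97, 67 and 112 on chromosomes 1 to 5, which is 10.8% to 12.5% of the bound regions of each. Their median size was 348 bp. Against the reference gene, 345 regions lay wholly inside it, 88 crossed its start, 47 its end and 3 both, while 8 had no reference gene. For 97 regions (19.8%) the start of another gene lay within 1 kb downstream of the midpoint, beside 17.3% of the called gene-overlapping regions under 3-fold. Whether that start was nearer than the start of the named gene was not compared. Of the 461 genes, 186 (40.3%) had a further bound region outside the gene within 3 kb. The like share was not computed for other genes, so it cannot be read as a trait of this set.

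The 10 regions of highest mean ratio included 4 in a 5′ UTR, 3 in an intron and 2 in a 3′ UTR. The highest of all named AT5G16567, which the deposited models give as coding and the reference does not list. At chr5:5418809-5419286 it had 742 and 352 reads in the KAN1-FLAG libraries, against 50 and 0 in the negative libraries. Its mean ratio was 10.9 ± 5.52 (SD, n = 2, as for all ratios below). The ratios behind each SD are unscaled and share a denominator. Each SD thus includes the difference in total reads between the KAN1-FLAG libraries, 2084091 and 1037288 in called regions, and does not measure reproducibility alone. The neighbour of AT5G16567 on the left is KAN1 itself, transcribed away from the region from a start 7623 bp distant. The neighbour on the right, GLN1;4 for glutamine synthetase, ends 2695 bp away. Both distances are those of the deposited gene models, and the reference places the start of KAN1 nearer to the region. A region of high ratio thus lay in the same stretch of chromosome as the gene for the precipitated protein.

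AT5G21105, annotated as a plant L-ascorbate oxidase, had the next highest ratio and the smallest spread among these 10. Its 5′ UTR region at chr5:7174035-7174415 had 499 and 343 KAN1-FLAG reads, against 40 and 1 negative reads, and a mean ratio of 10.3 ± 2.69. AT1G71710, a DNAse I-like protein, was bound at chr1:26980268-26980645 inside its first intron, which is 4098 bp long and precedes the start codon. It had 445 and 252.5 KAN1-FLAG reads, against 34 and 2 negative reads (9.69 ± 3.78). AT1G01490, a heavy metal transport family gene, had the most reads of any of the 491 regions, with 1149 and 602 in the KAN1-FLAG libraries against 89 and 2 in the negative libraries (9.62 ± 4.25). In all of these the lower KAN1-FLAG library was above the higher negative library, which follows from their choice by highest ratio.

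ICK1 encodes an inhibitor of cyclin-dependent kinases and was bound in its 3′ UTR at chr2:9976633-9976983, 218 bp before the end of the gene. It had 398 and 188 KAN1-FLAG reads, against 34 and 1 negative reads (8.37 ± 4.24). AT5G65380, a transporter of the MATE efflux family, was bound in intron 5 of 8, with 572 and 251 reads against 46 and 4 (8.23 ± 4.54). AT3G49220, of the invertase and pectin methylesterase inhibitor superfamily, was bound at 8.43 ± 3.60. The others were AT1G75710 for a C2H2-like zinc finger protein (8.19 ± 3.90, the second intron), AT4G25620 for a hydroxyproline-rich glycoprotein (7.95 ± 3.30, 5′ UTR) and AT1G74940 (7.84 ± 3.63, 5′ UTR). AT1G74940 alone among the 10 had no VGAATAW site in the 300 bp around its midpoint.

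**Figure D2:**
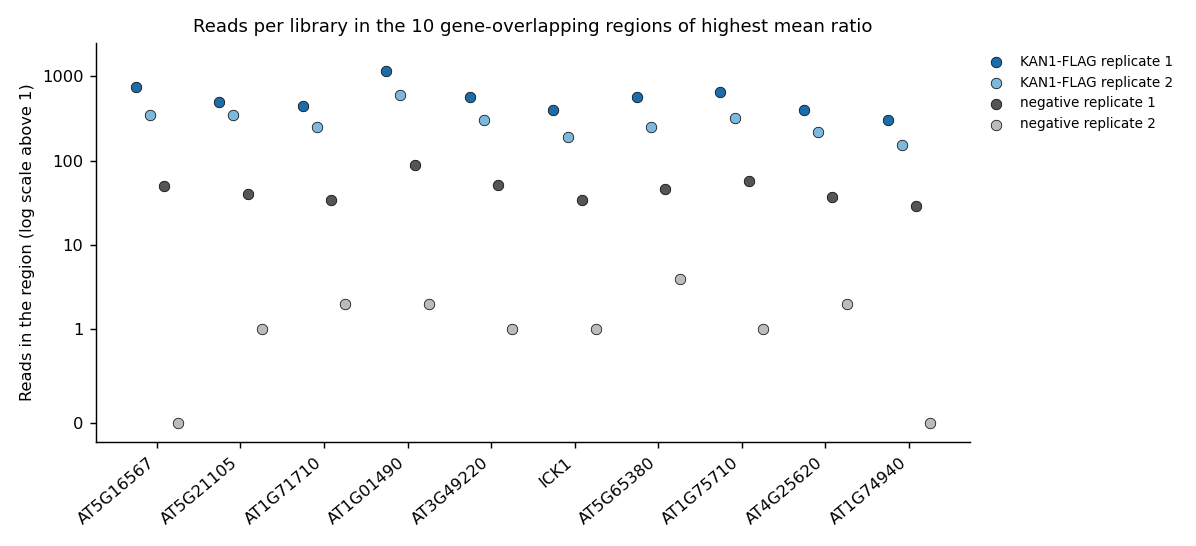
Reads in each of the 4 libraries (y axis, log scale above 1) for the 10 gene-overlapping regions of highest mean ratio, named by gene. KAN1-FLAG replicates (blue) stand left of the negative replicates (grey). In every region both blue points lie above both grey ones, which follows from the choice by highest ratio. Reads ran from 302 and 153 against 29 and 0 in AT1G74940 to 1149 and 602 against 89 and 2 in AT1G01490.

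Within genes, bound midpoints lay mostly in introns and 5′ UTRs and seldom in coding sequence. By the reference models, 174 of 491 midpoints were in an intron (35.4%), 156 in a 5′ UTR (31.8%), 90 in a 3′ UTR (18.3%), 43 in coding sequence (8.76%) and 18 in the exon of a non-coding gene (3.67%). Another 2 lay outside the reference gene and 8 named genes absent from it. The 5272 called gene-overlapping regions under 3-fold had 28.4% in introns, 23.2% in 5′ UTRs, 21.0% in 3′ UTRs, 18.4% in coding sequence and 7.78% in non-coding exons. Seen from the parts, the threshold was passed by 11.3% of the called regions in 5′ UTRs, 10.4% of those in introns, 7.51% of those in 3′ UTRs and 4.25% of those in coding sequence.

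The shares under either replicate alone stayed on the same side of those under 3-fold for coding sequence, 5′ UTR and intron, but not for the 3′ UTR. The replicates are not independent here, since both ratios share their denominator and all 124 regions chosen by replicate 2 alone are among the 967 chosen by replicate 1 alone. With regions chosen by replicate 1 alone or replicate 2 alone, coding sequence held 9.10% or 5.65%, 5′ UTRs 32.5% or 31.5%, and introns 34.3% or 34.7%. For 3′ UTRs the shares were 18.5% and 22.6%, on either side of the 21.0% under 3-fold. Region size moved with the threshold, with a median of 348 bp in bound regions, against 187 bp under 3-fold. Among regions of at most 250 bp, of which 78 were bound, coding sequence held 15.4%, against 22.4% under 3-fold, and introns 28.2%, against 28.7% under 3-fold. The part of region size in these shares was otherwise not tested. The deposited gene models are older than the reference and gave more intron, 221 regions (45.0%) with 130 in 5′ UTRs and 74 in 3′ UTRs. Of those 221, 28 lie in a 5′ UTR and 17 in a 3′ UTR of some reference transcript. Among them are regions of AN3, NAC1, NPY3, AT1G67900, DWF4 and AT3G49220. The parts given for single genes are those of the reference. By the deposited models 9.78% of the bound midpoints lay in coding sequence, against 18.7% under 3-fold, and 45.0% in introns, against 33.4% under 3-fold. Ratios differed little between parts, with medians of the mean ratio of 3.60 in coding sequence, 3.66 in 5′ UTRs, 3.76 in introns and 4.02 in 3′ UTRs.

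**Figure D3:**
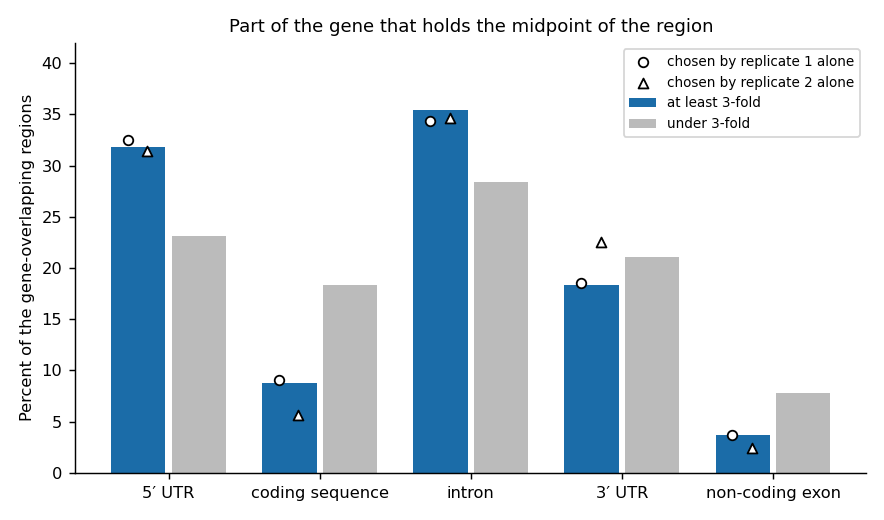
Percent of gene-overlapping regions (y axis) with the midpoint in each part of the reference gene, for the 491 regions of at least 3-fold (blue) and the 5272 under 3-fold (grey). Circles and triangles give the share among regions chosen by replicate 1 or replicate 2 alone. Coding sequence holds 8.76% of the bound midpoints against 18.4%, and introns 35.4% against 28.4%.

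The introns that held bound midpoints were long, and most of them came early in the gene. Their median length was 889.5 bp (quartiles 579 and 1352), against 416 bp for introns with a midpoint under 3-fold. Of the 174 midpoints, 146 lay in introns longer than 500 bp (83.9%), against 42.4% under 3-fold. An intron with several midpoints is counted once for each of them, also in the median lengths. In the annotation as a whole the median intron has 101 bp, and introns over 500 bp are 4.72% of the introns and hold 22.1% of intronic bases. The first intron held 78 of the 174 midpoints (44.8%, against 36.2% under 3-fold) and the second intron 51 (29.3%, against 20.5%). The third or a later intron held 45 (25.9%, against 43.3%). An intron before the start codon held 19 of the midpoints (10.9%, against 6.76%), and 149 lay between coding exons. Bound regions were also larger, with a median of 348 bp, against 187 bp under 3-fold. The part of region size in these contrasts of intron length and order was not tested. The first intron of STP7, a sugar transporter gene, had a region of 6.62 ± 1.95, that of FLA16 for a fasciclin-like arabinogalactan protein 6.77 ± 2.44, and that of the potassium channel gene KT1 5.38 ± 2.19. These 3 were chosen after their values were seen.

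Along the length of the gene, bound midpoints were most frequent at the start and were as frequent there as in the weaker regions. The first 20% of the gene held 148 of 481 midpoints (30.8%, against 29.3% under 3-fold), the last 20% held 95 (19.8%, against 25.7%) and the part between them 238 (49.5%, against 44.9%). The last 10% alone held 53 (11%, against 17.1%). A midpoint lay within 500 bp of the start of its own gene in 147 regions (30.6%, against 29.4%), and within 500 bp of its end in 110 (22.9%, against 27.4%). The genes themselves were of like length, with a median of 2923 bp, against 2907.5 bp under 3-fold and 2078 bp for all protein-coding genes of the reference.

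**Figure D4:**
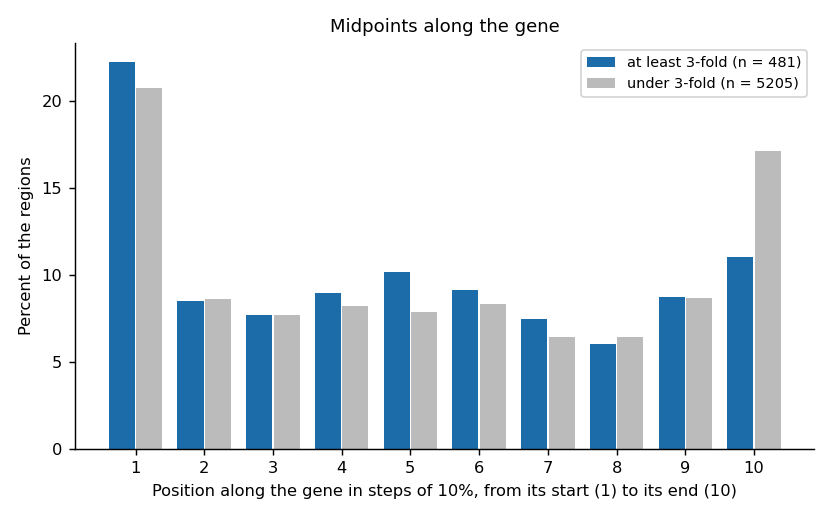
Percent of gene-overlapping regions (y axis) with the midpoint in each 10% of the length of the reference gene, from start to end (x axis), for 481 regions of at least 3-fold (blue) and 5205 under 3-fold (grey). The first bar pair holds 22.2% of the bound midpoints against 20.7%, and the last 11% against 17.1%.

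A VGAATAW site lay in the 300 bp around the midpoint of 323 of the 491 regions (65.8%), about as often as in the other bound regions (65.5%). The difference of 0.315 percentage points changed sign between replicates. It was -1.34 points with regions chosen by replicate 1 alone and 4.43 points by replicate 2 alone. Among regions under 3-fold, 42.1% of the gene-overlapping and 48.7% of the other called ones had a site, and in all called regions 50.3%. Windows of the same length lying 1000 bp beyond the ends of the 491 regions held a site in 31.8% of 982 cases. In 145 regions (29.5%) at least 2 sites were found, beside 28.1% of the other bound regions and 12.2% of gene-overlapping regions under 3-fold. The bound windows had a median GC content of 32.7%, against 34.7% for gene-overlapping regions under 3-fold and 32.0% for the other bound regions, and the part of base composition in the site shares was not tested. Regions with a site had a median ratio of 5.20 in replicate 1 and 2.53 in replicate 2, against 4.99 and 2.36 in those without.

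Sites were present in every part of the gene. They lay in the windows of 120 intronic regions (69.0%, against 44.6% under 3-fold), 60 regions in 3′ UTRs (66.7%, against 46.3%), 100 in 5′ UTRs (64.1%, against 43.4%) and 25 in coding sequence (58.1%, against 36.8%). Non-coding exons had a site in 12 of 18 regions. All 521 sites together read AGAATAA in 152 cases and AGAATAT in 125, so that these 2 words made up more than CGAATAA (36), CGAATAT (43), GGAATAA (79) and GGAATAT (86) together. Relative to their gene, 231 sites lay on the same strand and 283 on the opposite one. They were within 50 bp of the midpoint in 49.7% of cases, against 49.2% of the 3027 sites in regions under 3-fold.

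**Figure D5:**
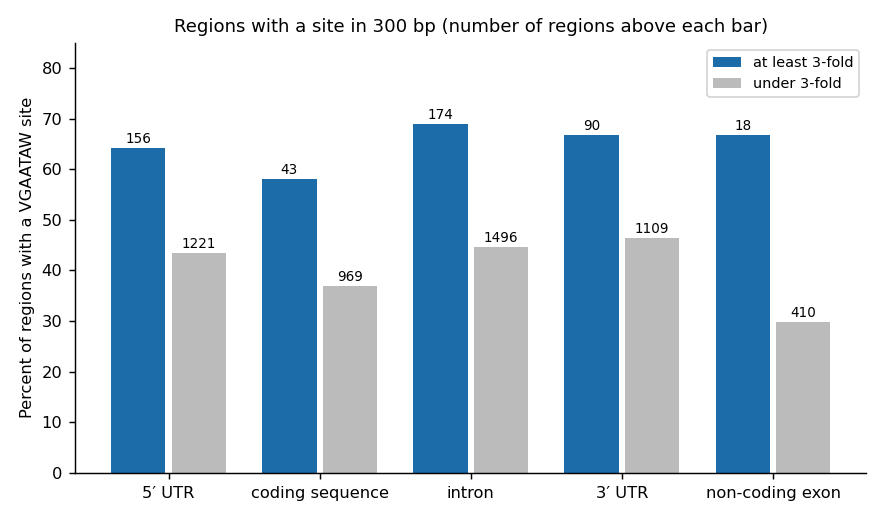
Percent of gene-overlapping regions with a VGAATAW site in 300 bp (y axis) by the part of the gene at the midpoint, for regions of at least 3-fold (blue) and under 3-fold (grey), with the number of regions above each bar. In introns the share was 69.0% against 44.6%, and in coding sequence 58.1% against 36.8%.

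Genes of leaf polarity, growth, meristems, hormones and light signalling were looked up in 7 lists written with earlier results of these data known, so their counts are descriptions. A gene-overlapping bound region was present in 37 of the 712 genes on any list (5.20%), against 427 of 27444 protein-coding genes (1.56%). Any called region overlapped 28.8% of the listed genes and 17.2% of the protein-coding genes, and the part of gene length in these shares was not tested. By list, the genes overlapped were 3 of 44 for polarity, 6 of 96 for leaf shape and cell growth, 2 of 33 for vascular tissue, 3 of 47 for meristem and boundary, 5 of 203 for auxin, 13 of 207 for other hormones and 5 of 87 for light and the clock.

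Among polarity genes, YAB2, AS2 and KAN1 were overlapped. YAB2 is a YABBY gene of the abaxial side and leaf blade, and its 5′ UTR region lay 60 bp from the start of the gene. It had 145 and 76 KAN1-FLAG reads, against 31 and 0 negative reads (3.56 ± 1.57), and its nearest site is printed above. AS2, which acts on the opposite, adaxial side, had a 5′ UTR region of 3.63 ± 2.11 and 2 sites. KAN1 was overlapped in coding sequence 846 bp from its start, with 94 and 47 KAN1-FLAG reads against 21 and 0 negative reads (3.36 ± 1.58) and no site. The transgene carries KAN1 coding sequence too, and reads from the transgene and from the gene cannot be told apart in that region.

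For leaf shape and cell growth, LNG1, ROT3, XTH7, ZFP4, AN3 and EXPA5 were overlapped. LNG1 promotes elongation along the leaf, and its 5′ UTR region had the widest spread of the listed genes, 6.65 ± 5.73 from 107 and 26 KAN1-FLAG reads against 10 and 0 negative reads. ROT3 encodes a cytochrome P450 of brassinosteroid metabolism, and its region of 5.03 ± 2.64 lay at the very end of the gene, 6 bp before it, where AT4G36370 is also named. It had 476 and 218 KAN1-FLAG reads, against 68 and 1 negative reads. Both ROT3 and AN3 lacked a site.

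XTH7, for an enzyme that cuts and joins wall xyloglucan, was bound in its last intron (4.88 ± 2.30). ZFP4, a zinc finger gene, carried a pair of regions in its only intron, which precedes the start codon and is 918 bp long. They had 236 and 114 KAN1-FLAG reads against 39 and 0 negative reads (4.49 ± 2.21), and 97 and 52 against 24 and 0 (3.10 ± 1.33). AN3, a coactivator of leaf cell proliferation also called GIF1, was at 4.16 ± 2.00 in the 5′ UTR. EXPA5, for a wall-loosening expansin, was near the threshold at 3.05 ± 1.51 in its 3′ UTR.

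The vascular genes were PXY, the receptor kinase of cambial cell division, and BRX, which acts in phloem and root growth. PXY was bound in its only intron (4.04 ± 2.12, 3 sites) and BRX in its second intron of 1388 bp before the start codon (3.03 ± 1.14, 2 sites). BRXL4, a gene of the same family that was on no list, had 7.05 ± 3.09 in its second intron and was chosen after its value was seen. Of meristem and boundary genes, SVP, a MADS-box repressor of flowering, had 555 and 272 KAN1-FLAG reads in its 5′ UTR against 88 and 5 negative reads (4.45 ± 2.15). NAC1, which acts in lateral root formation, was at 4.12 ± 1.51 in the 5′ UTR. AP2, a gene of floral organ identity, was at 3.66 ± 1.73 only 66 bp from its start, and 3 further bound regions lay within 3 kb outside it.

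Auxin genes were overlapped in transport and in response. LAX2 and LAX1 encode carriers that take auxin into cells. LAX2 had its midpoint in coding sequence, with 184 and 94 KAN1-FLAG reads, against 33 and 1 negative reads (4.09 ± 1.87). LAX1 had a pair of regions, one in its last intron with 124 and 52 reads against 20 and 2 (4.0 ± 2.31) and one in coding sequence with 162 and 90 reads against 37 and 0 (3.41 ± 1.38, 4 sites). The coding region of LAX1 thus held more sites than its intron region, which had 1.

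IAA13, an Aux/IAA repressor of auxin response, had the highest ratio of the auxin list at 5.74 ± 2.28, from 228 and 128 KAN1-FLAG reads against 31 and 0 negative reads. It was 1 of the 124 regions with a ratio of at least 3 in both replicates, 7.35 and 4.13. SAUR36, a small auxin up RNA gene, had 3.42 ± 1.27 in its 5′ UTR. NPY3, of a family that acts with auxin in organ formation, had 3.05 ± 0.58 from only 38 and 29 KAN1-FLAG reads against 10 and 1 negative reads.

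The list of other hormones is the longest and held the most overlapped genes, but not the highest share of them. GA2OX6 and GA2OX8, gibberellin 2-oxidases that inactivate gibberellins, were each bound in the first intron, of 1355 bp and 2599 bp. GA2OX6 had 380 and 227 KAN1-FLAG reads against 54 and 0 negative reads (5.62 ± 2.00), and GA2OX8 had 3.68 ± 1.86. CKX5 and CKX7, cytokinin oxidases, were bound in introns at 4.63 ± 2.85 and 3.84 ± 2.04. CYP707A1, which breaks down abscisic acid, was bound in the 3′ UTR (3.35 ± 1.26), and BAS1, which inactivates brassinosteroids, in coding sequence (3.24 ± 1.36).

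LOG7, AOC2, LOX3 and DWF4 encode enzymes that make or activate a hormone. LOG7, which releases active cytokinin, carried 2 regions. The region in its intron 5 had 308 and 129 KAN1-FLAG reads against 39 and 1 negative reads (5.46 ± 3.16, 3 sites), and the region in coding sequence had 123 and 57 against 29 and 0 (3.10 ± 1.61, no site). AOC2 and LOX3, of jasmonate synthesis, were at 4.57 ± 2.73 in the 3′ UTR and 3.06 ± 1.56 in an intron, and DWF4, of brassinosteroid synthesis, at 3.67 ± 2.06 in the 3′ UTR.

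Signalling genes completed this list. AFP1, which binds the abscisic acid response factor ABI5 and counteracts it, had 168 and 120 KAN1-FLAG reads in its 5′ UTR against 24 and 0 negative reads (6.0 ± 1.41). Its ratios of 7.0 and 5.0 were both above 3. RGL1 and RGA1 are DELLA repressors of gibberellin response, and were at 3.10 ± 1.24 in coding sequence and 3.07 ± 1.72 in the 5′ UTR. Both DELLA genes were thus just above the threshold, with unscaled ratios in replicate 2 of 2.23 and 1.86.

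All 5 light and clock genes were under a mean ratio of 4. BBX28, a B-box gene of light signalling, had 213 and 83 KAN1-FLAG reads in its 5′ UTR against 40 and 1 negative reads (3.61 ± 2.24). PIL5 and PIL6, also called PIF1 and PIF5, are phytochrome-interacting factors, and were at 3.36 ± 0.71 and 3.23 ± 1.64, each in the 5′ UTR. PHOT1, a blue-light photoreceptor gene, had 3.19 ± 1.84 in a first intron of 1628 bp, and TSF, a flowering gene related to FT, had 3.19 ± 1.35 in the second intron. None of the 5 reached 3 in replicate 2, where their unscaled ratios ran from 1.89 in PHOT1 to 2.86 in PIL5.

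By the wording of their annotated products, 46 of the 449 reference genes (10.2%) had a product worded like a transcription factor or other DNA-binding protein, against 6.59% of the genes with any called region and 4.28% of all reference genes. Transporters and channels made up 5.57%, against 3.83% and 2.12%, and cell wall enzymes and proteins 3.79%, against 1.95% and 1.63%. Products worded as a kinase or receptor were 6.68%, against 6.57% and 4.04%, and ubiquitin-related and F-box proteins 2.23%, against 3.42% and 3.92%. These classes were added after the genes were known and were not tested. They go by words alone, so that the first takes in the RNA-binding protein gene ATRZ-1A, and the kinases take in the kinase inhibitor gene ICK1 and the metabolic enzyme gene NADK2. The 4 genes that follow were chosen after their values were seen. Among the transcription factors, MYB4, a repressor of phenylpropanoid genes, had 5.33 ± 1.52 in its 5′ UTR, and the myb-like gene AT1G68670 had 5.22 ± 1.15. Among wall genes, PME3 for a pectin methylesterase had 5.10 ± 0.90 in its first intron, and CSLA02 for a cellulose synthase-like protein 4.77 ± 1.96 in an intron.

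Several genes were bound at more than a single place. There were 35 such genes, 31 with 2 regions and 4 with 3, and they account for 74 of the 491 regions. RBOH F, an NADPH oxidase gene that makes reactive oxygen outside the cell, had 3. Its 3′ UTR region had 378 and 183.5 KAN1-FLAG reads against 49 and 0 negative reads (5.73 ± 2.81, 3 sites), and regions in its introns 5 and 4 had 4.21 ± 2.41 and 3.11 ± 1.5. The ratios of RBOH F were thus highest at the end of the gene.

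ROPGEF14, an activator of ROP GTPases, was instead highest at its start, with 4.25 ± 2.47 in the 5′ UTR, 3.13 ± 1.53 in the first intron and 3.68 ± 2.12 in the second, each with a site. AT1G67900, of the NPH3 family of phototropin signalling, had 3 regions of 4.04 ± 1.77, 3.41 ± 1.48 and 3.56 ± 1.88 along its long 5′ UTR, none with a site. The deposited models place these 3 in an intron. AT1G79120, of the ubiquitin carboxyl-terminal hydrolase family, had 3 regions in introns after the stop codon at 5.76 ± 3.17, 4.29 ± 3.08 and 3.80 ± 1.19, and a site in the last of them only.

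AT5G21105 had a second region in its intron 4, with 326 and 149 KAN1-FLAG reads against 63 and 1 negative reads (3.71 ± 1.96) and no site. AT3G49220 had a second region in its 3′ UTR at 3.59 ± 2.02. The regions of a gene share its chromatin and are not independent.

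Genes without a protein product were few. AT3G59765, a non-coding RNA gene, had 291 and 128 KAN1-FLAG reads against 36 and 2 negative reads (5.51 ± 3.03). AT3G05905, a long non-coding RNA gene, was at 4.79 ± 3.15, and AT3G52742 at 4.64 ± 2.36. AT5G01595 was named together with FER1, the ferritin gene, whose 5′ UTR holds the region (5.17 ± 2.40). The pseudogene AT3G43625 had 5.50 ± 1.41, but from 9 and 13 KAN1-FLAG reads against 2 and 0 negative reads, and was 1 of 13 regions with fewer than 10 negative reads.

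AML1 (AT5G61960, ML1 in the reference) and XYL4 are further genes that the study names for binding inside the gene. AML1, a MEI2-like RNA-binding protein gene, had 183 and 85 KAN1-FLAG reads in its 5′ UTR against 27 and 0 negative reads (4.96 ± 2.57). XYL4, for a beta-xylosidase, had 325 and 149 reads against 67 and 0 in its 3′ UTR (3.54 ± 1.86). Both had 2 sites.

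The threshold cuts through a dense range of ratios. Just inside it stood AT3G21380, AT3G33009 and AT4G31130, each with a mean ratio of 3.0. AT3G21380 reached it with 19 and 5 KAN1-FLAG reads against 3 and 1 negative reads, and AT3G33009, a pseudogene, with 15 and 3 against 3 and 0. Just outside stood AT1G12938 at 2.996 ± 1.89, CYCB2;1, a mitotic cyclin gene, at 2.99 ± 0.96 and AT1G69730 at 2.98 ± 0.97. These 6 differ by less than the spread of any one of them.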

How the data were processed

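Reads had been aligned to TAIR10 and thinned of duplicates before regions were called, and the authors deposited the estimated counts of each library per region, unscaled. The deposited table further gives, for each replicate, a p-value adjusted as a Benjamini-Hochberg false discovery rate. For each region it gives a rank score, the rank product as a log2 value and other lengths in bp, its size and the distances to neighbouring genes, as the authors made them. Tool versions are not given in the sources used here. Full library depth is unknown: in called regions KAN1-FLAG 1 and 2 had 2084091 and 1037288 reads, against 663580 and 13462 for negative 1 and 2.

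From these counts, ratios were computed for each KAN1-FLAG replicate over the summed negative reads. Gene parts came from RefSeq models of TAIR10.1, in the order coding sequence, UTR, intron over all transcripts. Chromosome coordinates are shared, but 27.4% of 16036 left-hand gene ends lay within 1 bp of the deposited ones. Midpoint windows of 300 bp were searched for VGAATAW in Python 3.11.15 with pandas 2.3.3 and numpy 2.4.6, and figures drawn with matplotlib 3.10.9. The search was tested on simulated data. No test was made over regions: they share 4 libraries, and the rule used the ratio. The spread is the value under each replicate alone.

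Members and lists were chosen with earlier results of these data known. Of 797 list entries, 37 matched no single gene. Named were the 10 regions of highest ratio, all listed genes overlapped, the 6 genes with several regions of highest summed ratio, the 5 genes without protein of highest ratio, the 3 regions on each side of the threshold, and genes the study gives as bound inside. A few others are marked as chosen after their values were seen. Alternatives covered threshold, scaling, pseudocount, replicates, gene models, region size, window and motif.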

Additional observations from a re-analysis of the deposited data

How the results depend on the processing

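The number of gene-overlapping bound regions depended on the threshold, and their make-up also moved under several settings. It was 491, with 196 at a mean ratio of at least 4, 1232 at 2 and 124 where both replicates had to reach 3. It was 285 with a pseudocount of 10 reads and 126 where the deposited false discovery rate had to be 0.05 or less in both replicates. With midpoints in any reference gene it was 1017. The share of called regions bound, 8.52%, was then 3.40%, 21.4%, 2.15%, 4.95%, 2.19% and 11.3%. With KAN1-FLAG replicates scaled to equal totals it was 8.38% (483 regions) by mean ratio, and 6.68% (385 regions) with 3 required in both. Leaving out 1 library gave 124 regions (2.15%) without KAN1-FLAG replicate 1, 967 without KAN1-FLAG replicate 2, 1559 (27.1%) without negative replicate 1 and 530 without negative replicate 2. The 1559 are all the regions with a negative 2 read, every one of which passed, so this count says only where such reads lay. It leaves out 223 of the 491. The values of 52.9%, 57.1%, 10.3% and 30.3% below come from the same setting.

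The share with a site was 65.8% in gene-overlapping and 65.5% in the other bound regions. It was 71.9% and 68.4% at 4, 58.4% and 60.6% at 2, 75.8% and 71.4% with 3 in both replicates, 71.2% and 67.8% with the pseudocount, 72.2% and 71.7% with the false discovery rate, 50% and 54.8% in regions of at most 250 bp, 74.7% and 74.9% in 500 bp, and 73.9% and 75.4% for the motif without its first base. The whole region gave 69.5% in the gene-overlapping and 69.8% in the other bound regions. With libraries left out it ran from 52.9% to 75.8% and from 57.1% to 71.4%. The order of both sets thus changed with the setting.

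Coding sequence, 8.76%, was 6.12% at 4, 5.65% with 3 in both replicates, 3.97% with the false discovery rate and 15.4% in regions of at most 250 bp, and 5.65% to 10.3% with libraries left out. Introns, 35.4%, were 28.2% in those small regions, of which 78 were bound, and 30.3% to 35.1% with libraries left out. The 3′ UTR, 18.3%, was 23.5% at 4, 22.6% with 3 in both replicates, 22.8% with the pseudocount, 28.6% with the false discovery rate, and 18.5% to 22.6% with libraries left out. The 5′ UTR ran from 31.0% to 32.5% and the first 20% of the gene from 30.8% to 33.0% with libraries left out, and that first 20%, holding 30.8%, held 26.7% with the pseudocount and 26% with the false discovery rate. The deposited gene models gave 45.0% intron, 26.5% 5′ UTR and 15.1% 3′ UTR. That setting and the scaling with 3 in both replicates were chosen after seeing the data. The causes of these shifts were not tested.

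The replicate block, each KAN1-FLAG library over the negative library of its own number, could be computed only in the 1559 of 5763 gene-overlapping called regions where negative 2 had reads. It gave 1529 bound regions (26.5%), 53.2% with a site against 57.2% in the other bound regions, 30.5% in introns and 22.9% in 3′ UTRs. No test was paired, since none was made. In all, 63 values under the alternatives stayed within the counting interval of the value reported, or within 1.5 times the count, and 66 did not. The counting interval is a 95% interval that takes regions as independent. They share the same 4 libraries, so it serves as a yardstick only and does not measure the spread between replicates. Few negative reads, a median of 37 per bound region, limit the precision of each ratio.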
